A study of Schizosaccharomyces pombe with 12 samples.

Results

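The response of haploid *S. pombe* (fission yeast) to the alkylating agent methyl methanesulfonate (MMS) was read from 3 haploid MMS libraries and 3 haploid no treatment (NT) libraries, 6 of the 12 RNA-seq libraries of the study. The haploid strain was of mating type h- and carried ade6-M210, leu1-32, ura4-D18 and his3D-1, so it needed adenine, leucine, uracil and histidine. Its smt-0 deletion keeps it from switching mating type. MMS and NT cells shared every one of these alleles. Cells were grown in rich medium (YES) at 32 degrees to mid log phase, divided, and kept for 4 h with 0.0075% MMS or without it. The other 6 libraries came from a diploid strain of the same mating type under the same conditions, 3 with MMS and 3 NT, made by fusing cells of this genotype with cells that carried ade6-M216 in place of ade6-M210. Haploid MMS and NT libraries that share a number are treated below as 1 culture that was divided, which the labels do not state. All members of the comparison were 1 strain, so the 3 cultures are repeats of 1 genotype.

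MMS puts methyl groups on DNA bases. Some of these lesions stop DNA polymerases, and cells remove them by base excision, bypass them, or repair the broken forks by homologous recombination. In *S. pombe* stalled replication activates the checkpoint kinase Cds1, which keeps the MBF transcription factor active on its S phase targets. MMS also reacts with thiols such as glutathione, and the factors Pap1 and Atf1 switch on genes that remove peroxides, aldehydes and other reactive molecules.

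Expression is given as CPM, the gene's counts scaled to the normalized library size (TMM), and values of 3 libraries are in the order of cultures 1, 2 and 3. Log2 fold changes (log2FC), MMS over NT, and their standard errors (SE) are from edgeR's quasi-likelihood test over all 12 libraries, with p adjusted by Benjamini-Hochberg over 4584 genes. A gene was called where its adjusted p was under 0.05 and its log2FC beyond 0.58 in either direction, a change of 1.5-fold. Total counts were 21140150 to 26493886 in MMS libraries and 16288362 to 17655750 in NT libraries. The deposited counts held 0 reads of *ura4+* in every library and 2 to 8 of *his3+* in the haploid libraries, the genes deleted in the strain. The genes of M cells, *mfm1+* to *mfm3+*, *mam1+*, *mam2+* and *sxa2+*, were present, from *mfm1+* with 30 to 86 counts to *mam2+* with 3715 to 5743. The M cell gene *mat1-Mc* had 6 to 20 counts. Genes that serve P cells were present too, *map2+* (1199 to 2525 counts), *map3+* (114 to 222) and *sxa1+* (25699 to 39848). All these ranges are over the haploid libraries.

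After 4 h of MMS 75 genes were called up, which is 1.64% of the genes tested, and 49 were called down, which is 1.07%. At 2-fold or more 31 rose (0.676%) and 6 fell (0.131%). In libraries of whole cultures, fewer cells that express a gene and less RNA per cell cannot be told apart. The MMS and NT libraries did not overlap in CPM in 123 of the 124 genes called, where this held for 28.2% of all genes, and the direction was the same in 3 of 3 cultures for all 124, where this held for 60.1% of all genes. With the culture as a block 111 were called up and 98 down (2.42% and 2.14%), and all 124 kept an adjusted p under 0.05. Single libraries moved these counts. Genes up came to 28 without MMS 2, 39 without MMS 3, 40 without NT 2 and 28 without NT 3, and genes down to 10, 22, 27 and 20 without the same libraries and to 85 without NT 1. In all 6 fits that left out 1 haploid library, 26 of the 75 and 11 of the 49 kept an adjusted p under 0.05. The log2FC threshold was not applied to these 2 counts.

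Culture 1 stood apart from cultures 2 and 3, with and without MMS. Ribosomal protein genes were higher in NT 1 than in NT 2 and NT 3 in 120 of 121 genes, where 44.1% of all genes had their highest NT value there, and higher in MMS 1 than in MMS 2 and MMS 3 in 105 of 121. Histone genes had their lowest value in culture 1 in 10 of 11 genes in MMS and in 10 of 11 in NT. Genes of glycolysis and fermentation did so in 11 of 16 in MMS and 13 of 16 in NT, where 45.8% and 42.02% of all genes did. Targets of Pap1 were highest in culture 1 in 9 of 11 genes in each condition (45.4% of all genes in MMS and 44.1% in NT), and MBF targets lowest in 12 of 13 in MMS and 10 of 13 in NT. The results below are therefore given library by library.

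ERCC spike-ins, synthetic RNAs added in equal volume to every sample, took 3.78% to 4.24% of the counts in MMS libraries, against 1.90%, 3.71% and 3.399% in NT 1, NT 2 and NT 3. Relative to them the summed counts of *S. pombe* genes were 0.725, 0.672 and 0.669 in MMS, against 1.46, 0.729 and 0.811 in NT (NT mean set to 1). The means were 0.689 ± 0.0318 in MMS and 1 ± 0.4 in NT (SD, n = 3 each), with p = 0.1 in a two-sided exact permutation test, the smallest that 3 against 3 allows. In the edgeR fit scaled by spike-ins the median gene shifted by -0.60, and the median gene's own ratio of group means was -0.61, or -0.22 without NT 1. Every direction below is relative to the median gene. Scaled by spike-ins, 71 of the 75 genes called up were still above 0 and all 49 called down were below it, but only *rib4+*, *hsp3104+*, *cdt1+*, *cdc18+* and *tpx1+* still passed the thresholds upward, while 159 genes passed them downward.

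MBF binds the MluI cell cycle box, a short DNA element upstream of genes for the G1 to S transition. The letters ACGCGT, read on both strands of which they are the same, were sought from 250 bases before to 50 after the RefSeq start (ASM294v3) of each gene tested. They occurred in 7 of 13 MBF target promoters (53.8%), in 12% of those of genes called up, 2.04% of those of genes called down, and in 3.21% of all 4584. The letters were not confined to MBF targets. Meiosis and sporulation genes had them in 8 of 18 promoters (44.4%), with a median log2FC of -0.03, 2 genes up and 1 down. Checkpoint genes had them in 5 of 18 (27.8%), *mrc1+* among them, and histone genes in 3 of 11 (27.3%). DNA replication genes had them in 1 of 37 (2.7%) and Pap1 targets in 0 of 11. The stretches that hold the matches are shown for 5 targets that rose and for *mrc1+*, which did not pass and is shown for comparison, from 12 bases before the first to 12 after the last match, 5′ to 3′ on the gene's strand, with the matches in capitals:
cdt1: gatagctacgcgACGCGTcaacaaacgcga
cdc22: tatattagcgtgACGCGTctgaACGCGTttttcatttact
tos4: aaaatcaataaaACGCGTcgcgacgcggct
yox1: tgatatagcgcgACGCGTcgttaaacgtga
mrc1: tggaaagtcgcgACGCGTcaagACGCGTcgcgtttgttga
cdt2: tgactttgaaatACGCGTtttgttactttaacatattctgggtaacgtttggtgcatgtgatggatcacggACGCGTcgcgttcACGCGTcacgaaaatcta
They lie at chrII:477303-477332 for *cdt1+* (plus strand), chrI:4226896-4226935 for *cdc22+* (plus), chrI:1922452-1922481 for *tos4+* (plus), chrII:1648163-1648192 for *yox1+* (plus), chrI:4212429-4212468 for *mrc1+* (minus) and chrI:2035737-2035838 for *cdt2+* (minus). All begin upstream of the start, the *cdt1+* match at -77 and the *cdc22+* matches at -62 and -52. The gene models of *cdt1+* and *yox1+* in the deposited table begin further upstream than those of RefSeq and take in their matches. *cdc18+*, *mik1+*, *cig2+*, *ctp1+*, *nrm1+* and *rad21+* had no match in this window, and *ssb1+* had 3. The windows of *mik1+* (chrII:221048-221347, plus strand) and *ssb1+* (chrII:221249-221548, minus strand) overlap. The 3 *ssb1+* matches lie just past the end of the *mik1+* window, so the absence for *mik1+* depends on the window's edge.

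Of 13 MBF targets tested 8 rose and 0 fell at an adjusted p under 0.05, where 3.58% of all genes rose and 2.29% fell. Their median log2FC was 0.84, against -0.02 over all genes, and 0.32 with spike-in scaling. Scaled by spike-ins 2 rose. With the block 11 rose, where 13.6% of all genes rose and 9.62% fell. The count of 8 was 2 without MMS 2 or without MMS 3, 3 without NT 2 and 4 without NT 3. The largest rise was that of *cdt1+*, whose product loads the replicative helicase onto origins. *cdt1+* had 26.9, 60.2 and 64.97 CPM in MMS libraries, against 11.6, 13.3 and 14.3 CPM in NT libraries, so all 3 MMS values lay above the NT range and MMS 1 was the lowest of them. The change was 3.89-fold (log2FC 1.96, SE 0.31, edgeR adjusted p = 0.00668) and stayed called whichever haploid library was left out. *cdc18+*, which licenses origins together with Cdt1, had 41.9, 111 and 107 CPM in MMS and 19.6, 26.4 and 34.3 CPM in NT (log2FC 1.7, SE 0.32, edgeR adjusted p = 0.0146). Its adjusted p rose to 0.068 without MMS 2, and the call was also lost without MMS 3 or NT 2. *cdt2+*, a subunit of the ubiquitin ligase that removes Cdt1 and the ribonucleotide reductase inhibitor Spd1, had 114, 214 and 211 CPM in MMS and 58.2, 78.02 and 71.4 CPM in NT (log2FC 1.38, SE 0.27, edgeR adjusted p = 0.0164; up to 0.0781 without MMS 2).

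The large subunit of ribonucleotide reductase, *cdc22+*, had 465, 809.6 and 784 CPM in MMS and 199, 342 and 349.9 CPM in NT. MMS 1 and NT 1 were both the lowest of their group, and within each culture MMS was higher by 1.23, 1.24 and 1.16 on the log2 scale (log2FC 1.21, SE 0.27, edgeR adjusted p = 0.0278). *tos4+*, a chromatin-binding S phase protein, had 257, 454 and 425 CPM in MMS and 89.8, 185 and 202 CPM in NT (log2FC 1.25, SE 0.30, edgeR adjusted p = 0.0369). For *mik1+*, a kinase that keeps Cdc2 inhibited, the values were 26.5, 42.4 and 40.5 CPM in MMS and 17.9, 17.3 and 19.1 CPM in NT (log2FC 1.01, SE 0.19, edgeR adjusted p = 0.0142). These 3 calls were lost without any one of MMS 2, MMS 3, NT 2 and NT 3, with adjusted p up to 0.141 for *tos4+* without MMS 2. *yox1+*, a repressor that acts on MBF, had 34.1, 47.3 and 50.7 CPM in MMS and 20.1, 25.1 and 29.8 CPM in NT (log2FC 0.82, SE 0.16, edgeR adjusted p = 0.017; up to 0.0876 without MMS 3). *ctp1+*, which starts the resection of broken ends, had 252, 233 and 227 CPM in MMS and 153, 150.2 and 133 CPM in NT (log2FC 0.71, SE 0.090, edgeR adjusted p = 0.00182). Both groups were tight, and the call held in all 6 fits without 1 library.

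The other MBF targets did not pass. *cig2+*, the S phase cyclin, had 67.2, 119.97 and 124 CPM in MMS and 43.04, 61.8 and 69.6 CPM in NT. The groups overlapped through MMS 1 and NT 3 (log2FC 0.84, edgeR adjusted p = 0.0651, or 0.00261 with the culture as a block). *rad21+* (cohesin) had a log2FC of 0.55 and *ssb1+* (the large subunit of the single-stranded DNA binding protein RPA) one of 0.44, with edgeR adjusted p of 0.0823 and 0.0913, and both passed with the block (0.0025 and 0.00434). *mrc1+*, the mediator between forks and Cds1, had 187, 208 and 209 CPM in MMS and 185, 185 and 183 CPM in NT, a difference of 0.13 (edgeR adjusted p = 0.38). *nrm1+*, a co-repressor of MBF, differed by -0.02 (edgeR adjusted p = 0.942). Of the 5 genes for MBF subunits and activators 0 passed (1 at an unadjusted p under 0.05), with *cdc10+* nearest at 0.32 (edgeR adjusted p = 0.0662, or 0.00965 with the block). Of 8 genes for ribonucleotide reductase and its control, *cdc22+* and *cdt2+* were the 2 that rose, where 3.58% of all genes rose. With the block 4 rose and 1 fell, where 13.6% and 9.62% of all genes did. Without the block 0 rose when MMS 2, MMS 3 or NT 3 was left out and 1 when NT 2 was. The small subunit gene *suc22+* was 352, 395 and 392 CPM in MMS and 286, 295 and 279 CPM in NT (edgeR adjusted p = 0.0673, or 0.0152 with the block).

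**Figure D1:**
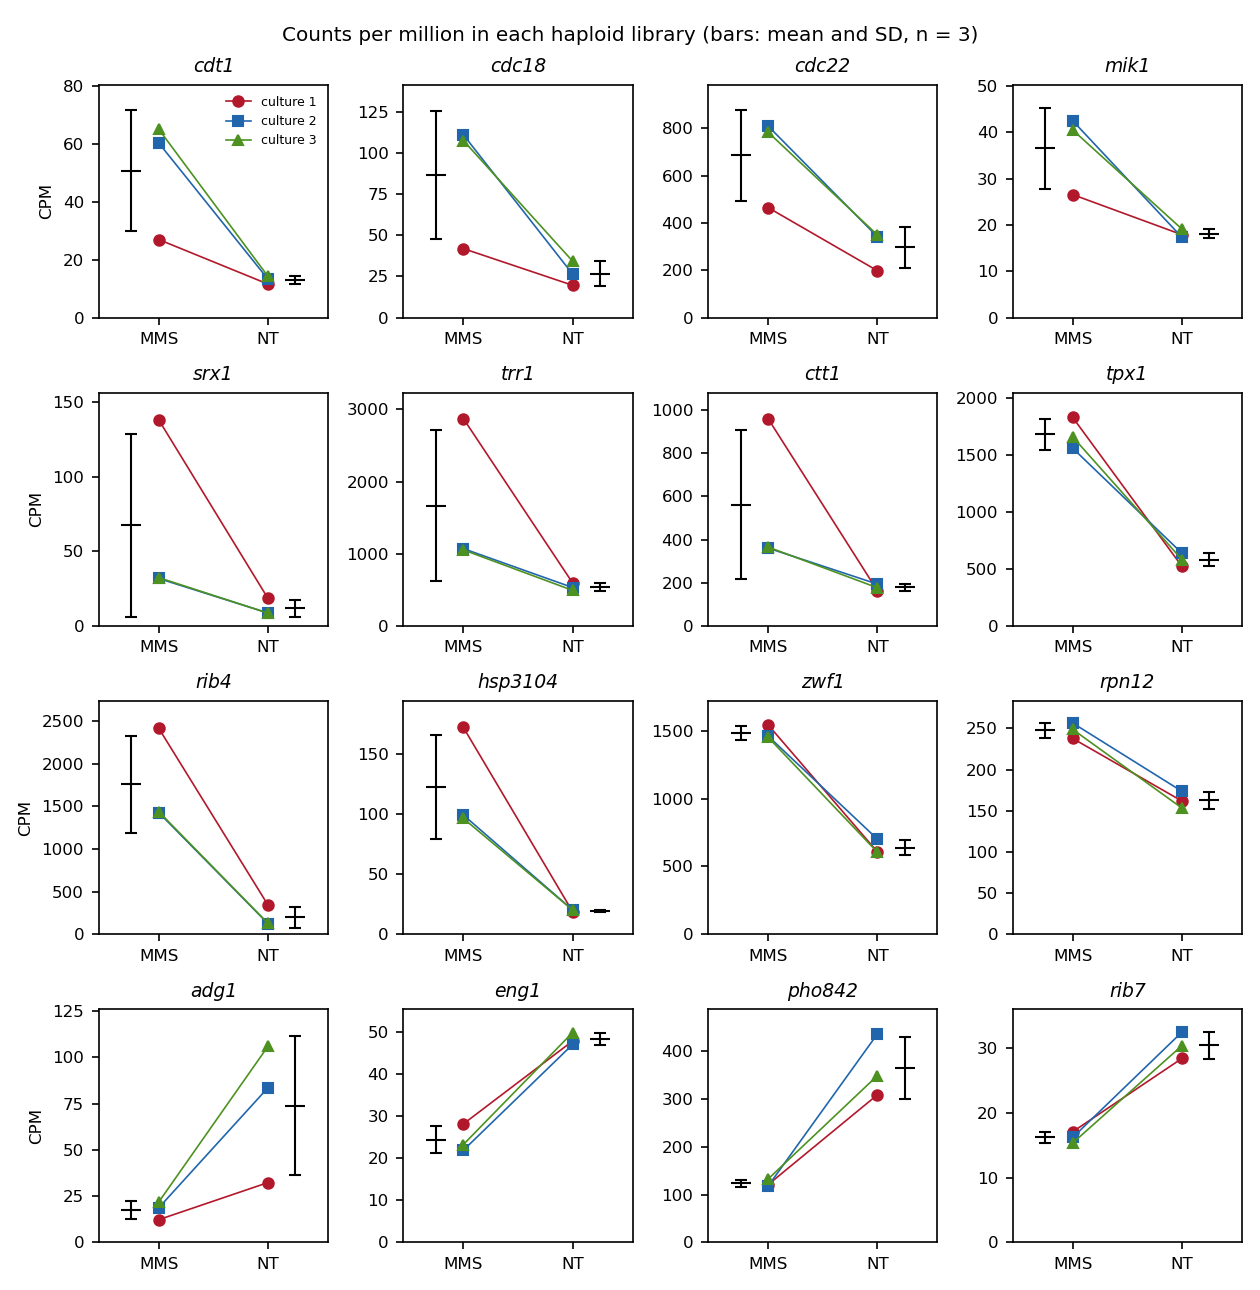
CPM (y axis, linear, from 0) of 16 genes in each haploid MMS (left) and NT (right) library; lines join libraries with the same number, and black bars are means with SD (n = 3). In MMS, culture 1 is the lowest for *cdt1+*, *cdc18+*, *cdc22+* and *mik1+* and the highest for *srx1+*, *trr1+*, *ctt1+*, *rib4+* and *hsp3104+*, while *zwf1+*, *rpn12+*, *pho842+* and *rib7+* differ little between MMS libraries.

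Of 17 genes of homologous recombination 2 rose and 1 fell (with the block 2 and 5; 1 rose without MMS 2, MMS 3 or NT 2), and their median was -0.18. Over all genes 3.58% rose and 2.29% fell, and with the block 13.6% and 9.62%. *ctp1+* has been described above. *rad54+*, a DNA translocase of this pathway, had 88.1, 102 and 105 CPM in MMS and 53.4, 62.6 and 68.9 CPM in NT (log2FC 0.67, SE 0.13, edgeR adjusted p = 0.0143). Its call was lost without MMS 2, MMS 3 or NT 2 (up to 0.0701). The DNA helicase gene *srs2+* fell, with 16.5, 13.3 and 13.7 CPM in MMS and 23.3, 21.8 and 22.8 CPM in NT (log2FC -0.64, SE 0.16, edgeR adjusted p = 0.0447). That call was lost in 5 of the 6 fits without 1 library, the exception being MMS 1. Translesion synthesis and postreplication repair had 1 rise in 11 genes (2 without MMS 1 or NT 1, and 3 up and 1 down with the block). It was *kpa1+*, polymerase kappa, with 169, 222 and 220.2 CPM in MMS and 88.1, 93.04 and 116 CPM in NT (log2FC 1.04, SE 0.13, edgeR adjusted p = 0.00182), called in all 6 such fits.

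Base excision and direct reversal, the pathways that act on methylated bases themselves, had 0 of 13 genes past the test and a median of -0.26. At an unadjusted p under 0.05 there were 5, the closest being *apn2+*, an AP endonuclease, with 15.2, 17.2 and 16.3 CPM in MMS and 19.9, 23.9 and 24.5 CPM in NT (log2FC -0.49, edgeR adjusted p = 0.0672), and *tdp1+*. With the block 4 of 13 fell, *uve1+*, *apn2+*, *atl1+* and *tdp1+*, and 0 rose, where 9.62% of all genes fell with the block; DESeq2 without the block called 3 of them down. *mag1+*, the glycosylase that removes 3-methyladenine, had 43.4, 55.01 and 54.8 CPM in MMS and 41.1, 58.03 and 57.8 CPM in NT, which overlap (log2FC -0.03, edgeR adjusted p = 0.92). Nucleotide excision repair had 0 of 13 genes past the test (2 at an unadjusted p under 0.05, 0 by DESeq2, and 1 up and 1 down with the block). Among 18 genes of the DNA damage and replication checkpoint *mik1+* was the 1 that rose (0 without MMS 2, MMS 3, NT 2 or NT 3, and 2 up and 2 down with the block). The shares of all genes that rose were 3.58%, and 13.6% with the block. *cds1+* was at 0.28 (edgeR adjusted p = 0.362) and *rad3+* at -0.23 (0.48). Of 37 genes for DNA replication itself 0 passed (3 at an unadjusted p under 0.05, and 1 down by DESeq2), with 2 lower with the block (*orc3+* and *orc5+*, at 0.0416 and 0.0305).

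Besides MBF targets, the 15 largest rises included enzymes against peroxides and aldehydes and of riboflavin synthesis. *rib4+*, lumazine synthase, had 2415, 1426 and 1437 CPM in MMS and 343, 124 and 127 CPM in NT, 8.88-fold (log2FC 3.15, SE 0.39, edgeR adjusted p = 0.00182, at most 0.0112 without 1 library). MMS 1 and NT 1 were both the highest of their group, and the ratios within cultures were 2.82, 3.52 and 3.50 on the log2 scale. *rib3+*, which makes the other precursor of lumazine, rose to 370.4, 314 and 316 CPM in MMS, against 258, 189 and 177 CPM in NT (log2FC 0.68, SE 0.13, edgeR adjusted p = 0.0152; up to 0.0698 without NT 3). *rib7+*, the reductase of the other branch of the pathway, fell to 17.1, 16.2 and 15.3 CPM in MMS, against 28.4, 32.5 and 30.4 CPM in NT (log2FC -0.91, SE 0.13, edgeR adjusted p = 0.00393). It was called in all 6 fits without 1 library. Of the 7 genes for riboflavin and its cofactors 2 rose and 1 fell (1 rose without MMS 2, NT 2 or NT 3, and 3 without MMS 1), and *rib1+*, *rib2+*, *rib5+* and *fmn1+* did not pass. Among all genes 3.58% rose and 2.29% fell.

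*hsp3104+*, a glyoxalase of the DJ-1 family, had 172, 99.1 and 96.3 CPM in MMS and 18.7, 20.1 and 20.1 CPM in NT, 6.23-fold (log2FC 2.64, SE 0.29, edgeR adjusted p = 0.00165), with NT values close together and MMS 1 well above MMS 2 and MMS 3. Of 17 genes for the removal of aldehydes and glyoxals 5 rose and 0 fell, where 3.58% and 2.29% of all genes did. With the block 8 rose and 2 fell (13.6% and 9.62% of all genes). Without the block 3 rose when MMS 2 or NT 3 was left out. The list's median of 0.29 was -0.31 with spike-in scaling. The aldo-keto reductase gene SPAC26F1.07 had 453, 487 and 479 CPM in MMS and 203, 203 and 196 CPM in NT, with little spread in either group (log2FC 1.24, SE 0.11, edgeR adjusted p = 0.000374). The S-(hydroxymethyl)glutathione dehydrogenase gene *fmd1+*, for formaldehyde, had 364, 328 and 326 CPM in MMS and 143, 203 and 169 CPM in NT (log2FC 0.98, SE 0.12, edgeR adjusted p = 0.00182). *fmd2+*, of the same activity, was at -0.57 (edgeR adjusted p = 0.179, or 0.0246 with the block, groups overlapping). *yak3+*, an aldose reductase, rose by 0.9 on the log2 scale (SE 0.16, edgeR adjusted p = 0.011; up to 0.0536 without NT 3) and the hydroxyacylglutathione hydrolase gene *glo2+* by 0.48 (SE 0.11, edgeR adjusted p = 0.0328; up to 0.141 without MMS 2). The 15 largest rises held further reductases outside the list. SPBC215.11c, of the aldo-keto reductase family, had 319.6, 353 and 332 CPM in MMS and 139, 72.2 and 58.3 CPM in NT (log2FC 1.9, SE 0.27, edgeR adjusted p = 0.00389). *plr1+*, pyridoxal reductase, had 581, 627 and 598 CPM in MMS and 293, 208 and 173 CPM in NT (log2FC 1.42, SE 0.18, edgeR adjusted p = 0.00182). In both genes NT 1 was the highest NT library and below all MMS libraries.

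Of 22 genes for peroxiredoxin, thioredoxin and glutathione enzymes 8 rose and 1 fell, where 3.58% and 2.29% of all genes did. Their median of 0.39 was -0.15 with spike-in scaling. With the block 17 rose and 1 fell, where 13.6% and 9.62% of all genes did. Without MMS 2, MMS 3, NT 2 or NT 3 the count of rises was 3, 4, 4 and 2, and without NT 1 it was 12. *tpx1+*, the peroxiredoxin that also relays peroxide to Pap1, had 1827, 1557 and 1656 CPM in MMS and 522, 637 and 581 CPM in NT, 2.9-fold in groups far from each other (log2FC 1.53, SE 0.14, edgeR adjusted p = 0.000374). *trx1+*, a cytosolic thioredoxin, had 503, 460.1 and 445 CPM in MMS and 328, 252 and 223 CPM in NT (log2FC 0.81, SE 0.13, edgeR adjusted p = 0.00913), and like *tpx1+* was called in all 6 fits without 1 library. *trr1+*, thioredoxin reductase, had 2872, 1070.3 and 1053 CPM in MMS and 596, 532 and 492 CPM in NT (log2FC 1.62, SE 0.32, edgeR adjusted p = 0.0167; up to 0.0822 without NT 3). *srx1+*, the sulfiredoxin that restores overoxidized Tpx1, had 138, 31.8 and 32.4 CPM in MMS and 18.5, 8.69 and 8.59 CPM in NT (log2FC 2.5, SE 0.60, edgeR adjusted p = 0.0376). It was lost in 4 of 6 such fits, without MMS 1, MMS 2, NT 2 or NT 3 (up to 0.153). The order turned round for the glutaredoxin gene *grx1+*, with 184, 354 and 334 CPM in MMS and 99.3, 155 and 118 CPM in NT, with culture 1 the lowest in both (log2FC 1.23, SE 0.24, edgeR adjusted p = 0.0167). *grx4+*, *grx5+* and *txl1+* rose by 0.4, 0.56 and 0.38 on the log2 scale (edgeR adjusted p = 0.0209, 0.0167 and 0.0458). The 1 that fell was *gst1+*, a glutathione transferase, with 6.06, 7.46 and 6.85 CPM in MMS and 10.9, 9.87 and 12.2 CPM in NT (log2FC -0.69, edgeR adjusted p = 0.0347).

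Pap1 is a transcription factor that gathers in the nucleus when peroxide or electrophiles oxidize it. Of 11 of its targets 4 rose and 0 fell (7 and 0 with the block), where 3.58% of all genes rose (13.6% with the block). Their median was 1.07, or 0.20 with spike-in scaling. The count of 4 was 7 without NT 1, 2 without MMS 2 and 0 without NT 2 or without NT 3. *ctt1+*, catalase, had 960.3, 361 and 365 CPM in MMS and 164, 194 and 177 CPM in NT (log2FC 1.66, SE 0.32, edgeR adjusted p = 0.0149; up to 0.0698 without NT 3). *obr1+*, annotated as a quinone dehydrogenase gene, had 1599, 1973 and 1772 CPM in MMS and 1269, 683 and 587 CPM in NT (log2FC 1.07, SE 0.26, edgeR adjusted p = 0.0379; up to 0.147 without NT 3). In NT 1 it was close to MMS 1, and the ratio within culture 1 was 0.33, against 1.53 and 1.59 in cultures 2 and 3. The gap between NT 1 and the other NT libraries was wider still for *osr1+*, annotated as a dehydrogenase gene, with 824, 311 and 267 CPM in MMS and 509.7, 65.4 and 55.4 CPM in NT, where the groups overlap (log2FC 1.15, edgeR adjusted p = 0.4, or 0.00629 with the block). *gst2+*, a glutathione transferase, had 4118, 3699.9 and 3473 CPM in MMS and 3795, 1764 and 1425 CPM in NT and showed the same order (edgeR adjusted p = 0.187, or 0.0226 with the block). The Pap1 site TTACGTAA, also its own complement, occurred in 1 of the 11 promoters (9.09%), against 0.502% of all, and that was *obr1+*:
obr1: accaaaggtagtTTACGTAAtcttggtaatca
It is at chrI:2095076-2095107 (minus strand), with the match in capitals at -111. The same site was in 3 of the 12 promoters (25%) of the general stress response genes described below. It was in 1.33% of the promoters of genes called up and 0 of the 49 of genes called down. The Atf1 site TGACGTCA was in 0 of the 12 general stress response promoters, against 0.284% of all.

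Superoxide dismutase *sod2+*, of mitochondria, had 275, 417 and 395 CPM in MMS and 217, 254 and 219.7 CPM in NT (log2FC 0.65, SE 0.15, edgeR adjusted p = 0.0328), a call lost in 5 of 6 fits without 1 library, the exception being MMS 1. *yhb1+*, the nitric oxide dioxygenase, had 1899.5, 1533 and 1490.3 CPM in MMS and 1494, 787 and 848 CPM in NT, with NT 1 inside the MMS range (log2FC 0.65, edgeR adjusted p = 0.122, or 0.00842 with the block). NADPH, which thioredoxin reductase and aldo-keto reductases consume, comes mainly from the pentose phosphate pathway. Of its 8 genes 4 rose and 1 fell (4 and 2 with the block), and 2 rose without MMS 2, MMS 3 or NT 3. Among all genes 3.58% rose and 2.29% fell, and with the block 13.6% and 9.62%. *zwf1+*, glucose-6-phosphate dehydrogenase, had 1544, 1461 and 1452 CPM in MMS and 608, 702 and 605 CPM in NT (log2FC 1.22, SE 0.14, edgeR adjusted p = 0.00182). *pgl1+*, the next enzyme, had 326, 339.9 and 337 CPM in MMS and 240.4, 242 and 229 CPM in NT (log2FC 0.5, SE 0.074, edgeR adjusted p = 0.00469). Both passed in all 6 fits without 1 library. *gnd1+*, which makes the second NADPH, and *tal1+*, transaldolase, rose by 0.6 and 0.6 on the log2 scale (edgeR adjusted p = 0.0164 and 0.0293), and passed in 3 of these 6 fits each. *gcd1+*, annotated as another glucose-6-phosphate dehydrogenase gene, fell by 0.48 on the log2 scale (edgeR adjusted p = 0.0456). *tkt1+*, *rpe1+* and *rki1+* of the branch without NADPH did not pass.

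**Figure D2:**
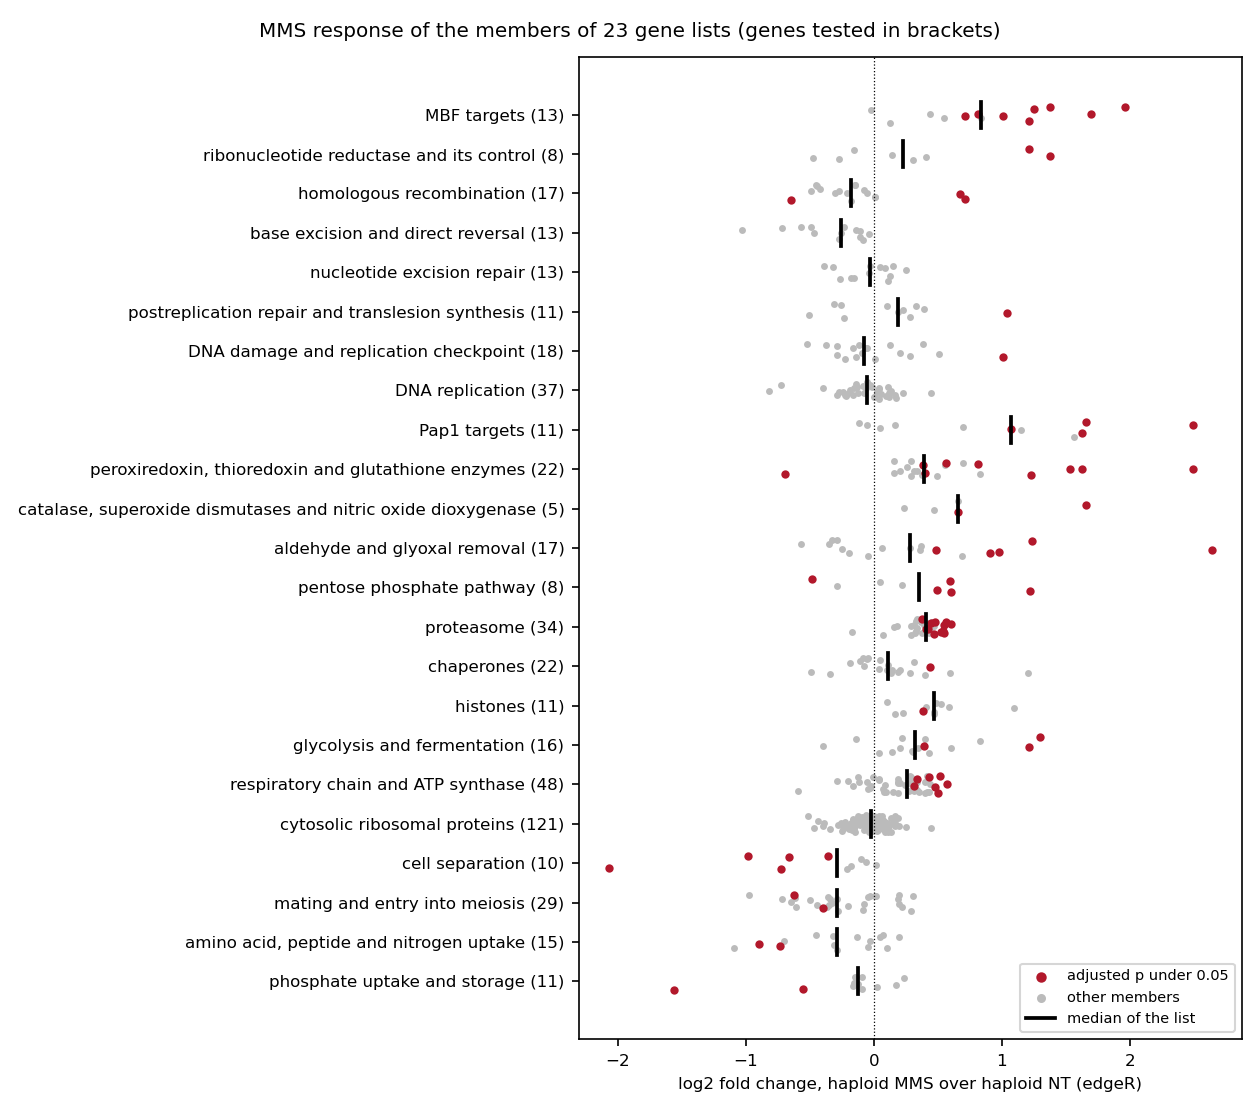
Log2FC, haploid MMS over haploid NT, of the members of 23 gene lists (rows, with the number of genes tested); red points passed an adjusted p under 0.05, grey points did not, and black bars are list medians. MBF targets (median 0.84) and Pap1 targets (1.07) lie furthest to the right, the 34 proteasome genes form a narrow group at a median of 0.41, and the red points of cell separation, phosphate uptake and amino acid uptake all lie left of 0.

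The proteasome, which degrades ubiquitin-tagged proteins, is built of a core particle, a base and a lid. Of 34 subunit genes 12 rose and 0 fell, with a median of 0.41 that was -0.18 with spike-in scaling, and with the block 30 rose, where 13.6% of all genes did. The count was 1 without MMS 2, 4 without MMS 3, 5 without NT 2 and 1 without NT 3. *rpn12+*, of the lid, had the largest change, with 238, 257 and 249 CPM in MMS and 162, 174 and 153 CPM in NT (log2FC 0.61, SE 0.12, edgeR adjusted p = 0.0164). *rpn7+*, also of the lid, had 276, 276 and 273 CPM in MMS and 205, 202 and 187 CPM in NT (log2FC 0.47, SE 0.074, edgeR adjusted p = 0.00604) and passed in all 6 fits without 1 library. *rpt5+*, an ATPase of the base, and *pre4+* and *pts1+*, of the core particle, rose by 0.42, 0.47 and 0.55 on the log2 scale (edgeR adjusted p = 0.0101, 0.00972 and 0.0117). In chaperones, which refold proteins, 1 of 22 rose, the mitochondrial Hsp70 gene *ssc1+* at 0.44 (edgeR adjusted p = 0.0376), where 3.58% of all genes rose, and 5 rose and 2 fell with the block, where 13.6% and 9.62% of all genes did; the count was 3 without MMS 1 and 0 without MMS 2, MMS 3, NT 2 or NT 3. *hsp16+*, a small heat shock protein, had 61.6, 189 and 186 CPM in MMS and 72.2, 60.8 and 56.2 CPM in NT, higher in MMS 2 and MMS 3 alone (log2FC 1.21, edgeR adjusted p = 0.109, or 0.0547 with the block). Of the 12 genes of the general stress response driven by Atf1, *mug14+* rose, with 76.7, 70.4 and 68.1 CPM in MMS and 44.7, 26.7 and 27.04 CPM in NT (log2FC 1.13, SE 0.23, edgeR adjusted p = 0.018; up to 0.0899 without NT 3), and the calcium pump gene *cta3+* fell by 0.52 on the log2 scale (edgeR adjusted p = 0.0143). With the block 6 rose and 1 fell, among them *hsp9+*, with 401, 852 and 891 CPM in MMS and 175, 444 and 354 CPM in NT (adjusted p = 0.00349 with the block and 0.124 without it, edgeR). Among 14 stress transcription factors and kinases *hsf1+*, the heat shock factor, was the 1 that passed (log2FC 0.26, edgeR adjusted p = 0.0488; lost in 5 of the 6 fits without 1 library, the exception being NT 1), while *pap1+* was at 0.34 (edgeR adjusted p = 0.141, or 0.019 with the block) and *atf1+* at -0.23 (0.758). With the block 5 of the 14 rose and 2 fell, where 13.6% and 9.62% of all genes did.

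At cell separation glucanases digest the septum between daughter cells. Of 10 genes of this group 5 fell and 0 rose, with and without the block, and in fits without MMS 2, MMS 3 or NT 3 the count was 1, 2 and 1. Among all genes 2.29% fell, and 9.62% with the block. *adg1+*, a surface protein gene, had 12.3, 18.7 and 21.8 CPM in MMS and 32.3, 83.5 and 106 CPM in NT, where NT 1 was far below NT 2 and NT 3 but above all MMS values (log2FC -2.07, SE 0.38, edgeR adjusted p = 0.013; up to 0.0576 without MMS 2). *eng1+*, the beta-glucanase that opens the primary septum, had 28.2, 21.9 and 23.3 CPM in MMS and 47.9, 47.1 and 49.9 CPM in NT (log2FC -0.98, SE 0.14, edgeR adjusted p = 0.00319). It was called in all 6 such fits. *agn1+*, the alpha-glucanase that erodes the cell wall around the septum, had 108, 83.9 and 85.9 CPM in MMS and 149, 144 and 147 CPM in NT (log2FC -0.66, SE 0.13, edgeR adjusted p = 0.0143; up to 0.0781 without MMS 2). *adg2+* had 58.9, 43.5 and 45.4 CPM in MMS and 84.4, 72.8 and 87.1 CPM in NT (log2FC -0.73, SE 0.14, edgeR adjusted p = 0.0157). *adg3+*, a glucosidase, fell by 0.36 on the log2 scale (edgeR adjusted p = 0.0381).

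Mitosis and cytokinesis had 2 of 19 genes higher, *cut12+*, of the spindle pole body, with 683, 578 and 569 CPM in MMS and 444, 402 and 356 CPM in NT (log2FC 0.61, edgeR adjusted p = 0.0164), and *cdc2+*, the cell cycle kinase, at 0.42 (edgeR adjusted p = 0.0169). The count was 0 without MMS 2 or NT 3 and 1 without MMS 3 or NT 2, and with the block 2 rose and 1 fell. *slp1+*, the activator of the anaphase promoting complex, was at -0.72 with no overlap (36.3, 29.6 and 32.1 CPM in MMS and 45.3, 49.2 and 66.9 CPM in NT, edgeR adjusted p = 0.264). Histone genes are transcribed in S phase. Of 11 genes 1 rose, *pht1+* (H2A.Z) at 0.39 (edgeR adjusted p = 0.0292; 2 genes without MMS 1 and 0 without MMS 2, MMS 3, NT 2 or NT 3), and 7 with the block, with a median of 0.47, or -0.05 with spike-in scaling. Over all genes 3.58% rose, and 13.6% with the block. *hhf1+*, a histone H4 gene, had 555, 822 and 804 CPM in MMS and 215, 427 and 378 CPM in NT (log2FC 1.1, edgeR adjusted p = 0.0571, or 0.00754 with the block). *htb1+*, the H2B gene, had 1954, 2823 and 2767 CPM in MMS and 1206, 2219.8 and 2007 CPM in NT, where MMS 1 lay below NT 2 and NT 3 (edgeR adjusted p = 0.311, or 0.0354 with the block).

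**Figure D3:**
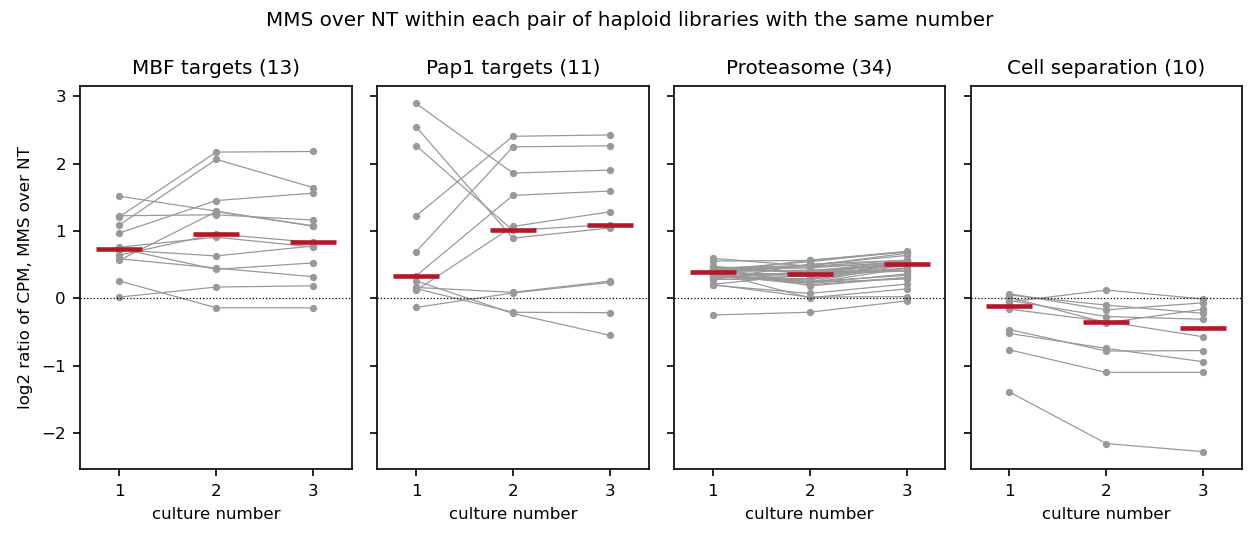
Log2 ratio of CPM, MMS over NT, within each pair of haploid libraries with the same number (x axis), for the members of 4 lists; grey lines join the points of a gene and red bars are medians. Medians of MBF targets were 0.74, 0.96 and 0.83 and those of Pap1 targets 0.33, 1.01 and 1.10 in cultures 1, 2 and 3, while the proteasome stayed at 0.39, 0.36 and 0.51.

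Uptake genes made up part of the falls. *pho842+*, a phosphate transporter gene, had 121, 118 and 132 CPM in MMS and 308, 435 and 348 CPM in NT (log2FC -1.56, SE 0.19, edgeR adjusted p = 0.00182). The MMS values lay far below the NT values. Of 11 genes of phosphate uptake and storage only 1 more passed, *gde1+* at -0.55 (edgeR adjusted p = 0.0344), where 2.29% of all genes fell. The genes of the phosphate starvation response *pho1+* and *pho84+* were at 0.23 and -0.15 with overlapping groups (edgeR adjusted p = 0.574 and 0.765), and *pho1+* passed with the block (0.0378). *gde1+* did not pass without MMS 1, MMS 2, MMS 3, NT 2 or NT 3 (up to 0.14). Of 15 genes for the uptake of amino acids, peptides and nitrogen 2 fell and 0 rose (6 and 0 with the block). Among all genes 2.29% fell, and 9.62% with the block. The falls in this list came to 0 without MMS 2, NT 2 or NT 3, 1 without MMS 1 or MMS 3 and 4 without NT 1. *ptr2+*, a peptide transporter, had 7.83, 9.42 and 12.2 CPM in MMS and 17.3, 20.05 and 17.6 CPM in NT (log2FC -0.9, SE 0.17, edgeR adjusted p = 0.0152; up to 0.078 without MMS 2). *aat1+*, an amino acid permease, had 30.8, 37.1 and 39.4 CPM in MMS and 47.6, 58.03 and 72.5 CPM in NT (log2FC -0.73, SE 0.17, edgeR adjusted p = 0.0297; up to 0.124 without NT 3). *put4+* (proline) had 28.1, 50.9 and 45.5 CPM in MMS and 44.2, 115 and 107 CPM in NT, overlapping through NT 1 (log2FC -1.1, edgeR adjusted p = 0.116, or 0.00531 with the block). The thiamine transporter gene *thi9+* fell by 0.57 on the log2 scale (edgeR adjusted p = 0.0379) and *thi5+*, of thiamine synthesis control, by 0.36 (0.0317). Sugar transporters had 0 of 9 past the test with or without the block (0 at an unadjusted p under 0.05 and 0 by DESeq2).

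Of 22 genes of metal homeostasis 2 rose and 2 fell (6 and 5 with the block). Over all genes 3.58% rose and 2.29% fell, and with the block 13.6% and 9.62%. The rises came to 0 without MMS 2, MMS 3, NT 2 or NT 3, and the falls to 0 without MMS 2 or NT 3 and 1 without MMS 1, MMS 3 or NT 2. *zrt1+*, the high affinity zinc transporter, had 57.96, 56.9 and 58.1 CPM in MMS and 77.6, 87.5 and 88.5 CPM in NT (log2FC -0.55, edgeR adjusted p = 0.0117). *zip3+*, another zinc transporter, had 124, 106 and 107 CPM in MMS and 88.9, 72.5 and 77.6 CPM in NT (log2FC 0.5, edgeR adjusted p = 0.0167). *str3+*, annotated as a siderophore-iron transporter gene, had 1.26, 2.1 and 1.73 CPM in MMS and 0.284, 0.807 and 0.584 CPM in NT, few reads in any library (log2FC 1.61, SE 0.41, edgeR adjusted p = 0.0456). Its call was lost in 5 of 6 fits without 1 library, the exception being MMS 1. *fio1+*, an iron oxidase gene, had 11.5, 10.04 and 12.4 CPM in MMS and 20.8, 15.6 and 18.4 CPM in NT (log2FC -0.69, SE 0.18, edgeR adjusted p = 0.0472), and its call was lost in every one of these fits. Cell surface flocculins had 3 of 8 genes lower (*pfl3+*, *pfl5+* and *gsf2+*, at -0.62, -0.4 and -0.43) and 0 higher (5 lower with the block), and 1, 0, 1, 1 and 1 without MMS 1, MMS 2, MMS 3, NT 2 and NT 3.

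Genes of mating and entry into meiosis, some of which are switched on by nitrogen starvation, were read here in rich medium. Of 29 genes 2 fell and 0 rose, where 2.29% of all genes fell, and with the block 7 fell and 1 rose, where 9.62% of all genes fell; the falls came to 4 without MMS 1, 5 without NT 1 and 1 without any one of the other haploid libraries. *map4+*, an agglutinin of P cells, had 52.6, 54.5 and 52.3 CPM in MMS and 80.9, 82.3 and 82.6 CPM in NT, with the smallest SE of the 49 genes called down (log2FC -0.62, SE 0.074, edgeR adjusted p = 0.00182). It was called in all 6 fits without 1 library. *mam1+*, the exporter of M factor, had 54.3, 51.05 and 51.2 CPM in MMS and 71.2, 69.2 and 66.2 CPM in NT (log2FC -0.4, edgeR adjusted p = 0.0187). *ste11+*, the main activator of mating genes, had 140.03, 84.6 and 102 CPM in MMS and 164, 136 and 117 CPM in NT (log2FC -0.35, edgeR adjusted p = 0.237, or 0.0339 with the block). TTCTTTGTT, part of the element that Ste11 binds, or its complement was in 41.4% of these 29 promoters and in 2.01% of all. It was in 0 of the 49 promoters of genes called down, *map4+* among them, and in 2.67% of those of genes called up. Meiosis and sporulation had 2 of 18 higher, the recombination genes *rec6+* (78.8, 93.97 and 96.4 CPM in MMS and 46.3, 57.8 and 56.4 CPM in NT, log2FC 0.75, edgeR adjusted p = 0.00389) and *rec11+* at 0.73 (edgeR adjusted p = 0.0175), and 1 lower, *rec7+*, with 35.7, 25.4 and 24.2 CPM in MMS and 43.7, 59.8 and 67.9 CPM in NT (log2FC -1.01, edgeR adjusted p = 0.0415). With the block 3 rose and 5 fell, where 13.6% and 9.62% of all genes did. Without MMS 2, MMS 3, NT 2 or NT 3, 1 rose and 0 fell, and 3 fell without MMS 1 and 2 without NT 1. *rec6+* and *yox1+*, both higher, are neighbours that lie tail to tail on chromosome II. Whether the counting used strand is not stated.

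In glycolysis and fermentation 3 of 16 rose (8 with the block), *gpd3+*, *eno102+* and *hxk1+*, with a median of 0.32, or -0.17 with spike-in scaling. Among all genes 3.58% rose, and 13.6% with the block. *eno102+*, a second enolase gene, had 279, 278 and 270.3 CPM in MMS and 104, 138 and 115 CPM in NT (log2FC 1.21, SE 0.15, edgeR adjusted p = 0.00182). The main enolase gene *eno101+* had 1076, 2707 and 2758 CPM in MMS and 718, 2343 and 2265 CPM in NT (log2FC 0.3, edgeR adjusted p = 0.726, or 0.0485 with the block). *gpd3+*, a glyceraldehyde-3-phosphate dehydrogenase gene, had 1071, 1060.3 and 1026 CPM in MMS and 510.5, 403 and 369 CPM in NT (log2FC 1.3, SE 0.33, edgeR adjusted p = 0.0452). The call was lost in 5 of 6 fits without 1 library, the exception being NT 1. Without MMS 1, MMS 2, MMS 3, NT 2 or NT 3 the count of glycolytic genes up was 1. Of 48 genes of the respiratory chain and ATP synthase 7 rose, none above 1.5-fold, where 3.58% of all genes rose. With the block 20 rose, where 13.6% of all genes did. Their median of 0.26 was -0.35 with spike-in scaling. The count of 7 was 3 without MMS 1, 0 without MMS 2, MMS 3, NT 2 or NT 3 and 11 without NT 1. Cytosolic ribosomal proteins had 0 of 121 genes past the test (2 at an unadjusted p under 0.05, 0 by DESeq2, and 2 up and 1 down with the block) and a median of -0.02, with median ratios of -0.09 in culture 1, -0.01 in culture 2 and 0.08 in culture 3. Methionine, arginine and ergosterol synthesis and Tf2 retrotransposons had 0 of 13, 0 of 8, 0 of 20 and 0 of 4 past the test, with 3, 1, 4 and 0 members at an unadjusted p under 0.05 and 1, 0, 3 and 0 called up by DESeq2. With the block 2 rose and 3 fell for methionine, 2 rose for arginine, 4 rose for ergosterol and 0 Tf2 elements passed.

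Genes without a described function were among the extremes. SPAC212.03, near the left end of chromosome I (23589 to 24054 in the table), had 0.657, 0.335 and 0.512 CPM in MMS and 1.82, 1.92 and 2.75 CPM in NT, few reads in any library (log2FC -2.1, SE 0.50, edgeR adjusted p = 0.0354; up to 0.141 without MMS 2). SPAC56F8.15 had 2.93, 5.07 and 4.29 CPM in MMS and 8.12, 13.7 and 12.1 CPM in NT (log2FC -1.46, SE 0.25, edgeR adjusted p = 0.0101), called in all 6 fits without 1 library. SPBPB21E7.11 lies between *eno102+* and *cmt2+* near the left end of chromosome II, and both neighbours rose. *cmt2+* had 962, 936 and 981 CPM in MMS and 542, 555 and 524 CPM in NT (log2FC 0.83, SE 0.11, edgeR adjusted p = 0.00194). SPBPB21E7.11 itself had 26.3, 18.4 and 16.3 CPM in MMS and 8.69, 8.44 and 6.6 CPM in NT (log2FC 1.36, edgeR adjusted p = 0.0164). *nrd1+*, an RNA-binding protein gene whose product holds back sexual differentiation, had 67.3, 61.7 and 81.1 CPM in MMS and 127, 147 and 114 CPM in NT (log2FC -0.89, SE 0.13, edgeR adjusted p = 0.00508). *ted1+* had 18.7, 20.4 and 18.7 CPM in MMS and 32.1, 34.3 and 37.2 CPM in NT (log2FC -0.84, SE 0.096, edgeR adjusted p = 0.00182). In both genes every MMS value lay below every NT value, and both calls held in all 6 fits without 1 library. *wtf16+*, of the wtf family of spore killers, had 7.48, 7.46 and 7.79 CPM in MMS and 15.2, 13.2 and 13.5 CPM in NT (log2FC -0.88, edgeR adjusted p = 0.012; 0.0622 without MMS 2). It was the 1 of 18 wtf genes to pass. With the block 1 rose and 2 fell, where 13.6% and 9.62% of all genes did. SPAC1834.13, SPAC9E9.02, SPAC110.06 and the transcription factor gene SPBC1773.12 completed the 15 largest falls, at -1.05, -0.94, -0.84 and -0.93, and each lost its call without MMS 2 and without NT 3. The product was annotated as uncharacterized for 10 of the 49 genes called down (20.4%) and 7 of the 75 called up (9.33%), against 6.13% of all genes tested. Genes called down were longer and less abundant than genes called up: their median length was 2275 bases, against 1431 for genes called up and 1839 for all, and their median NT level was 48.3 CPM, against 166.7 and 117.1. Within 100 kb of a chromosome end lay 7 genes called up (9.33%) and 2 called down (4.08%), against 2.99% of all.

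Whether haploids answered MMS differently from diploids was tested as the diploid response minus the haploid one. 0 genes passed at an adjusted p under 0.05 (edgeR), 155 had an unadjusted p under 0.05 (3.38% of the genes), and DESeq2 called 1, SPAC26F1.07. This gene had 384, 336 and 341 CPM in diploid MMS libraries, against 282, 209.7 and 271 CPM in diploid NT libraries, so that its log2FC was 1.24 in haploids and 0.48 in diploids (difference -0.76, SE 0.15; adjusted p = 0.999 by edgeR and 0.042 by DESeq2). All 75 genes called up and all 49 called down in haploids had the same sign in diploids, and 19 and 14 of them passed there at an adjusted p under 0.05, where 0.916% and 0.633% of all genes did. The share of all genes with the same sign in both ploidies was not counted. The change was smaller in diploids for 68 of the 75 and 44 of the 49. The median log2FC of the 75 was 0.90 in haploids and 0.61 in diploids, and that of the 49 was -0.70 and -0.47. Since the genes were chosen for their size in haploids, a smaller value in an independent group is no test of a difference.

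MBF targets had a median of 0.84 in haploids and 0.61 in diploids, where 2 of 13 rose. *cdt1+* had 50.4, 52.96 and 29.4 CPM in diploid MMS, against 24.4, 21.2 and 26.4 CPM in diploid NT (log2FC 0.88, edgeR adjusted p = 0.187). The difference between the responses had an unadjusted p of 0.027 and did not pass once adjusted (edgeR), as no gene did. *gpd3+* had 1101, 628 and 1008 CPM in diploid MMS, against 850.4, 444 and 1369.5 CPM in diploid NT, with a difference of -1.26 (SE 0.46, unadjusted p = 0.0196, adjusted p = 0.999 by edgeR). *plr1+* and *hsp3104+* had differences of -0.89 and -1.24 (SE 0.25 and 0.39; adjusted p = 0.999 and 0.999 by edgeR). Proteasome genes had a median of 0.41 in haploids and 0.19 in diploids, with 0 of 34 past the test there, and histones 0.47 and 0.06. In cell separation 5 of 10 genes were down in haploids and 6 of 10 in diploids, with medians of -0.28 and -0.55, and *eng1+* had 31.5, 36.6 and 33.1 CPM in diploid MMS, against 84.1, 77.2 and 106 CPM in diploid NT (log2FC -0.98 in haploids and -1.40 in diploids, unadjusted p of the difference 0.0466). The *eng1+* difference did not pass once adjusted either.

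**Figure D4:**
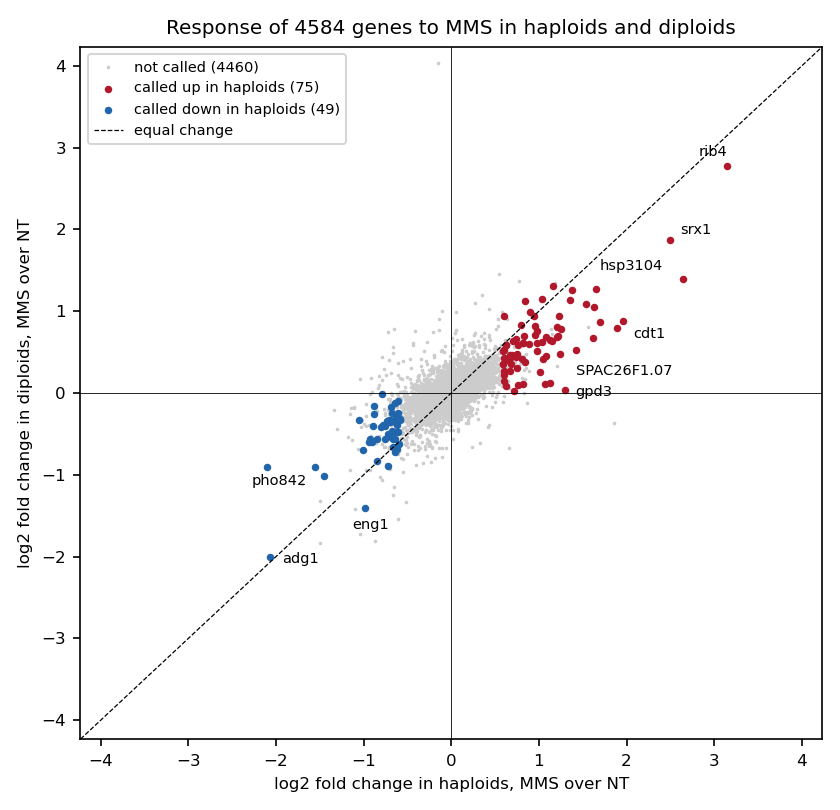
Log2FC of MMS over NT for 4584 genes in haploids (x axis) and diploids (y axis); coloured points are the genes called in haploids, and the dashed line marks equal change. All 75 red and 49 blue points have the same sign on both axes, and 112 of the 124 lie nearer to 0 in diploids.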

How the data were processed

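Poly(A) RNA of 12 samples, haploid MMS, haploid NT, diploid MMS and diploid NT in 3 biological replicates each, was sequenced with ERCC spike-ins. The deposited table holds counts per gene, made by the authors with STAR 2.7.0e and featureCounts; the featureCounts version, the genome build and the strand setting were not stated. The 92 spike-ins and the genes SPAC977.09c and SPBC1348.10c, which share their coding sequence per the study's methods, were left out of gene tests. Genes with under 5 reads in 2 or more libraries were dropped, leaving 4584 of 4857, and edgeR 4.0.16 (quasi-likelihood, TMM, a mean per condition, R 4.3.3) gave each contrast. No interval is given for counts, and total counts per library set the precision of low genes.

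Same-numbered haploid MMS and NT libraries deviated together from their group means (r = 0.711, 0.647 and 0.499), so the numbers were taken to pair them; the pairing comes from the label numbers and this check, not from a stated batch. Different numbers gave -0.689 to 0.571. The highest of these, MMS 3 with NT 2, was above the 0.499 of MMS 3 with NT 3. The check therefore does not settle how cultures 2 and 3 pair, and results with the block rest on the label numbers. The block is the culture.

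Alternatives were DESeq2 1.42.0, its size factors, spike-in scaling, other filters, haploid libraries alone, the block and leaving out libraries. The fit was tested on simulated data. Named genes were those the study names, the 15 largest rises and falls among called genes without overlap and up to 6 per list by adjusted p; other genes named, those that did not pass among them, were chosen after their values were seen. Certain list members are not reported here and were left out of their lists. Members and lists were chosen with earlier results of these data known. Promoters were read from RefSeq ASM294v3, on which 4855 of 4857 genes matched.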

Additional observations from a re-analysis of the deposited data

How the results depend on the processing

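Genes up numbered 75 and genes down 49. Other filters and DESeq2 size factors kept both counts within 1.5 times. DESeq2 gave 82 down. With haploid libraries alone 40 rose and 22 fell, or 114 and 110 with the replicate block. The replicate block over all libraries gave 111 up and 98 down, and 137 and 107 without culture 1. Spike-in scaling gave 5 up and 159 down. Leaving out 1 haploid library gave 28 to 103 up and 10 to 85 down. The response of diploids minus that of haploids had 1 gene past the test by DESeq2 and 0 in each other setting run. The cause of these shifts was not tested. The shift of the median gene against spike-ins was -0.795 to -0.216 without 1 haploid library, with -0.216 reached without NT 1, and -0.65 with total ERCC counts. Some named genes changed sign. With spike-in scaling log2FC was -0.266 for *cdc10+*, -0.175 for *cdc2+*, -0.246 for *cds1+*, -0.012 for *cut12+*, -0.105 for *eno101+*, -0.094 for *glo2+*, -0.17 for *grx4+*, -0.039 for *grx5+*, -0.082 for *gst2+*, -0.335 for *hsf1+*, -0.012 for *htb1+*, -0.175 for *hxk1+*, -0.464 for *mrc1+*, -0.213 for *pap1+*, -0.098 for *pgl1+*, -0.466 for *pho1+*, -0.183 for *pht1+*, -0.113 for *pre4+*, -0.048 for *pts1+*, -0.123 for *rpn7+*, -0.167 for *rpt5+*, -0.086 for *ssb1+*, -0.155 for *ssc1+*, -0.187 for *suc22+*, -0.242 for *txl1+*, -0.067 for *yhb1+*, -0.12 for *zip3+*. With the replicate block and without culture 2 it was 0.093 for *atf1+*, 0.058 for *nrm1+*. With the replicate block and without culture 3 it was 0.039 for *atf1+*, 0.059 for *nrm1+*. Leaving out 1 haploid library it ranged over -0.609 to 0.008 for *atf1+*, -0.087 to 0.622 for *eno101+*, -0.190 to 0.070 for *mag1+*, -0.163 to 0.053 for *nrm1+*, -0.425 to 0.015 for *pho84+*. Few reads limit the lowest genes, *str3+* and SPAC212.03 among them.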
